A study of Mus musculus with 6 samples.

Results

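Interferon-stimulated genes are the genes that cells switch on when interferon reaches its receptors. They were followed here in natural killer (NK) cells with the genes of microRNA-15a and microRNA-16-1 deleted. The list was given by name and held 35 genes, and a gene was measured where the platform annotation gave it a probe set with exactly 1 symbol. By this rule 31 of the 35 were measured, out of 19938 genes in all. Isg15, Gbp2 and Igtp lay on probe sets that also carry another gene's symbol, and Ifi44 had no probe set listed. RNA came from NK cells sorted from the spleens of C57Bl/6 mice aged 8 to 12 weeks, with no stimulation between harvest and sort. Knockout cells (15a/16-1FKO in the labels) were hybridised to 3 arrays, and control cells (Ctrl) to the other 3. Cells of both groups were gated as YFP+, CD27+, NK1.1+ and CD3-, and the sources used here do not give what drives YFP and the deletion. Replicates are described in the design as technical, and p-values are read here as measuring no more than the spread between these arrays, although sex-linked transcripts, given further on, differ between arrays of 1 genotype.

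Type I interferons bind the receptor of Ifnar1 and Ifnar2, which signals through the kinases Jak1 and Tyk2. These phosphorylate transcription factors such as STAT2, which acts with IRF9 at the interferon-stimulated response element (ISRE) in the promoters of genes such as Ifit1, Mx1 and Oas1a. Interferon-gamma, which NK cells secrete themselves, binds Ifngr1 and Ifngr2 and acts through Jak1 and Jak2 on gamma-activated sites (GAS), found at Irf1 and at genes for interferon-induced GTPases. Resting cells keep a low, tonic expression of many of these genes.

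The mature microRNAs of the deleted genes are shown first because these genes define the comparison, with the seed (bases 2 to 8) in capitals. How much of each mature microRNA remained in the knockout cells was not tested. Both mature microRNAs are RefSeq sequences of the GRCm38.p6 build, and both have the seed AGCAGCA.
miR-15a-5p (chr14:61632075-61632096, minus strand): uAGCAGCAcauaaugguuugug
miR-16-5p (chr14:61631936-61631957, minus strand): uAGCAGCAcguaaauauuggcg

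RefSeq promoter windows, from 250 bases before to 50 bases after a transcript start, were matched for 21 of the 31 measured members. The core of the ISRE (GAAA, any 2 bases, GAAA, on either strand, with overlapping matches counted) was present in a window of 11 of these 21 genes (52.4%), against 3.99% of 27025 genes with a window. The core of the GAS, TTCNNNGAA, which reads the same on both strands, was present for 6 of 21 (28.6%), against 9.55% of all genes. By role, the ISRE core was found for 5 of 11 antiviral effectors, 2 of 2 RNA sensors, 1 of 5 regulators and 3 of 3 GTPases. The promoters of Ifit1, Ifit3 and Oas1a are printed because control replicate 2 was low for all 3 genes, as given further on. They were chosen after the values were seen, and capitals mark the ISRE core.
Ifit1 promoter (chr19:34640639-34640938, plus strand): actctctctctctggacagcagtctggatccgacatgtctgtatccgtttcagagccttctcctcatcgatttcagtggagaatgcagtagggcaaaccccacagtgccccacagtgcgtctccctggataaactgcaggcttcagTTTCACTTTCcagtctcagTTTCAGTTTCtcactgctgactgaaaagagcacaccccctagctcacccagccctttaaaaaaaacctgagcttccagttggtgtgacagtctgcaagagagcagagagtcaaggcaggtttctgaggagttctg
Ifit3 promoter (chr19:34583279-34583578, plus strand): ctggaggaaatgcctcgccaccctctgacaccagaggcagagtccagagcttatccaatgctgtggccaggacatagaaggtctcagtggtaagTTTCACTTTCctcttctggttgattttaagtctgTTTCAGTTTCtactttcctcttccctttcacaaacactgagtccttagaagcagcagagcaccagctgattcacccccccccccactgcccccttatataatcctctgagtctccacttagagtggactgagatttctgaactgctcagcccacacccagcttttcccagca
Oas1a promoter (chr5:120907476-120907775, minus strand): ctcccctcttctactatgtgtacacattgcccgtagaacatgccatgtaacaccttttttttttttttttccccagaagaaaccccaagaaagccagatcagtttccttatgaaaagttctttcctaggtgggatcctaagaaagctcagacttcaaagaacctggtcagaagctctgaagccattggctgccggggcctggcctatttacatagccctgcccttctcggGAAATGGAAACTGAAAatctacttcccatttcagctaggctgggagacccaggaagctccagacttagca
Ifit1 and Ifit3 hold the same pair of matches in the same order, TTTCACTTTC and then TTTCAGTTTC, which begin 104 and 85 bases before the start in Ifit1, and 156 and 122 bases before it in Ifit3. In Oas1a the 2 matches overlap, and they begin 20 and 14 bases before the start. A further pair of promoters, chosen after the values were seen, belongs to the transcription factors Irf1 and Irf8, with capitals for the GAS core.
Irf1 promoter (chr11:53769764-53770063, plus strand): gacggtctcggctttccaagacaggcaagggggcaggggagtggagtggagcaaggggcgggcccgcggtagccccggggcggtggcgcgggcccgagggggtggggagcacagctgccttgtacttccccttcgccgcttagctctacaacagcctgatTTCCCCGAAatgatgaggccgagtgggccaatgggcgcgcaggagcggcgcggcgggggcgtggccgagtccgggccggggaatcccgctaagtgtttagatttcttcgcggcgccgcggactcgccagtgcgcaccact
Irf8 promoter (chr8:120736108-120736407, plus strand): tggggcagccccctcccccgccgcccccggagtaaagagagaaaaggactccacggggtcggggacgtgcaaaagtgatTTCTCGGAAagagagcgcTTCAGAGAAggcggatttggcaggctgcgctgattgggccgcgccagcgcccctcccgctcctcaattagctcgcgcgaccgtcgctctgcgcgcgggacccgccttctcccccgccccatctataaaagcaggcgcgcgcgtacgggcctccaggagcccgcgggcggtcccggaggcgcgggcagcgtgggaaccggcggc
Irf1 holds 1 match, which begins 90 bases before the start, and Irf8 holds 2, which begin 171 and 153 bases before it. Neither Irf1 nor Irf8 holds the ISRE core in these windows. The printed promoters do not stand for all members low or high in control replicate 2. Ifit2 and Oasl2, also low in it, hold no ISRE core, and Ifit2 and Oas1a hold the GAS core. Gbp7 and Gbp3, high in it, hold the ISRE core, and Gbp7 also holds the GAS core. Irf7, also high in it, holds neither core. Mx1 and Iigp1, low in it, had no window matched. A match of letters is a description of the sequence and does not show that a factor binds there.

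The 2 deleted microRNA genes were read first. The Mir15a probe set read 4.37, 3.53 and 3.43 in knockout arrays and 7.14, 6.02 and 6.69 in control arrays on the log2 scale. It was lower in the knockout with a log2 difference of -2.84 (SE 0.31, adjusted p = 0.0296 by limma), and the adjusted p lay between 0.150 and 0.184 without knockout replicate 2, knockout replicate 3, control replicate 1 or control replicate 3. Mir16-1 read 2.61, 2.68 and 3.00 in knockout arrays and 3.19, 3.20 and 3.77 in control arrays, a difference of -0.63 (SE 0.19, adjusted p = 0.999 by limma), with every value under background. Background here means 4.13, the level under which 95% of 1027 olfactory receptor genes lay. The 8 measured NK markers all lay above background, with mean log2 levels of 9.45 to 9.79 in knockout arrays and 9.54 to 9.62 in control arrays. Of 8 T cell, 7 B cell, 7 macrophage, monocyte and dendritic cell, 5 plasmacytoid dendritic cell and 6 neutrophil markers, 5, 5, 5, 3 and 4 lay under background. The T cell markers above it were Cd3d, Cd3e and Cd3g, between 5.63 and 7.79 in knockout arrays and between 6.19 and 7.50 in control arrays. The B cell markers above it were Cd79b and Pax5, and the macrophage, monocyte and dendritic cell markers above it were Lyz2 and Itgax. The neutrophil markers above it were S100a8 and S100a9, and S100a8 read 8.09, 7.35 and 8.08 in knockout arrays and 7.29, 7.61 and 6.30 in control arrays (difference 0.77, SE 0.32, unadjusted p = 0.0407, adjusted p = 0.999 by limma), while Ly6g, Retnlg, Cxcr2 and Mmp8 were under background. Of the markers of plasmacytoid dendritic cells, a main source of interferon-alpha, Siglech, Ccr9 and Pacsin1 were under background. Bst2, itself induced by interferon, averaged 6.36 ± 0.32 in knockout and 6.71 ± 0.12 in control arrays, and Tcf4 6.19 ± 0.50 in knockout and 6.07 ± 0.13 in control arrays (SD, n = 3 each). Both erythroid markers had means above background, Alas2 at 4.39 in knockout and 4.49 in control arrays and Slc4a1 at 4.33 in knockout and 4.38 in control arrays. The part of other cell types in the results was not tested. Transcripts tied to the animal's sex differed between arrays of 1 genotype. Xist, which silences an X chromosome in females, read 7.56, 8.58 and 8.84 in knockout arrays and 9.65, 3.89 and 8.86 in control arrays. The Y-linked Eif2s3y lay between 6.18 and 7.88 in knockout arrays and read 2.33, 7.95 and 6.29 in control arrays. Control replicate 2 was thus lowest in Xist and highest in Eif2s3y, and control replicate 1 was highest in Xist and lowest in Eif2s3y. Both transcripts lay above background in every knockout array and in control replicate 3. Eif2s3y lay under background in control replicate 1 and Xist in control replicate 2, so that the genotypes were not matched in these transcripts. These differences within a genotype go against a purely technical origin of the replicates, so that what n, SD and p stand for, repeat arrays or different animals or pools, is not settled here. In RNA from a whole sort, fewer cells of a type and less RNA per cell cannot be told apart.

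None of the 31 interferon-stimulated genes passed the threshold between genotypes. The threshold was an adjusted p of 0.05 over all genes (limma), which 4 of 19938 genes (0.0201%) passed, and the lowest adjusted p among the members was 0.999. An unadjusted p under 0.05 was reached by 2 of 31 members, Oas2 and Dhx58, beside 3.47% of all genes. Knockout and control arrays did not overlap for 3 of 31 members, beside 8.33% of all genes. Of these, Dhx58 and Irf1 were lower in all knockout arrays, beside 4.65% of all genes, and Oas2 was higher in all of them, beside 3.68%. The exact two-sided permutation p of these genes was 0.1, and no smaller p can be had from 3 arrays a genotype.

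Of the members, 21 (67.7%) were lower in the knockout mean and 10 higher, against 52.1% lower among all genes. Their median log2 difference was -0.062, and that of all genes was -0.0081. Differences of the members ran from -0.59 (Dhx58) to 0.44 (Oas2), and 25 of 31 (80.6%) lay within 0.25 of 0, against 84.9% of all genes. The 95% interval lay within 1 log2 unit of 0 for 30 of 31 members, beside 19485 of all 19938 genes. Among the members Ifit1 was the exception. In the cumulative plot of differences the members lie left of all genes around 0, with Dhx58 and Oas2 at the 2 ends. With 1 array left out the median of the members was -0.067 without knockout replicate 2 and nearer 0 without any of the others. It was -0.039 and -0.017 without knockout replicates 1 and 3, and -0.0034, -0.035 and -0.038 without control replicates 1, 2 and 3. With 7 of 31 members the mean over the 6 arrays lay under background, and both members with an unadjusted p under 0.05 were among these 7. Of the 24 members above background, 0 had an unadjusted p under 0.05 by limma, beside 3.82% of all 10892 genes above background.

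**Figure D1:**
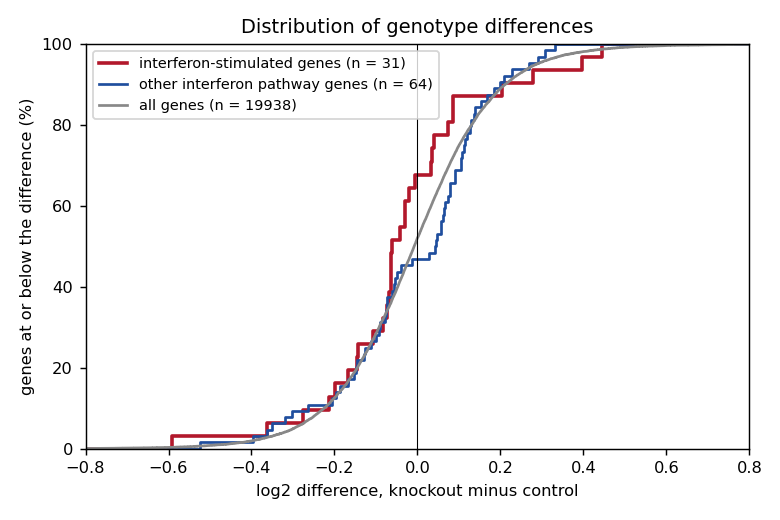
Cumulative share of genes (percent, vertical axis) at or below each log2 difference, knockout minus control (horizontal axis), for 31 interferon-stimulated genes, 64 other interferon pathway genes and all 19938 genes. The curve of the interferon-stimulated genes has its median at -0.062, against 0.044 for the other pathway genes and -0.0081 for all genes.

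**Figure D2:**
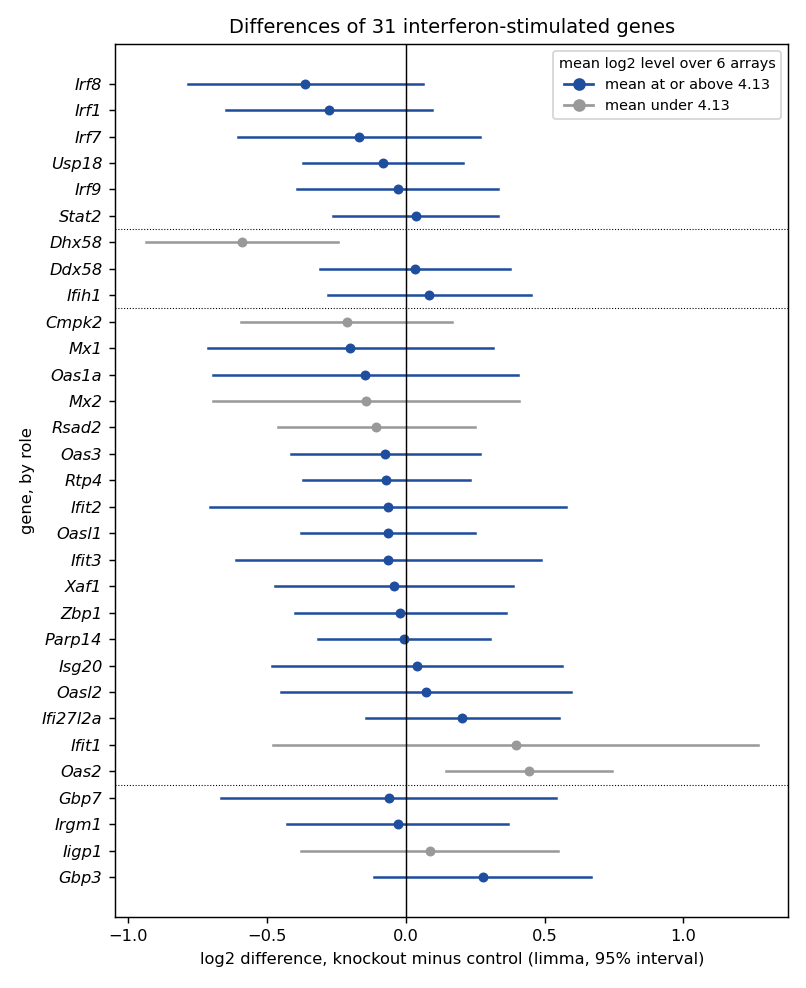
Log2 difference of each measured interferon-stimulated gene, knockout minus control, with its 95% interval from limma (n = 3 arrays each), grouped by role from regulators at the top to interferon-gamma GTPases at the bottom. Grey marks the 7 genes whose mean lay under 4.13. The intervals of Dhx58 and Oas2 leave out 0, and both are grey.

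Of the 6 regulators, 5 had negative differences and none passed the threshold, with a median of -0.13. Irf8, a transcription factor of myeloid and lymphoid cells that also serves mature NK cells, read 7.34, 7.81 and 7.23 in knockout arrays and 7.72, 8.08 and 7.68 in control arrays. Knockout replicate 2 reached above control replicates 1 and 3, so that the genotypes overlapped, with a difference of -0.36 (95% interval -0.79 to 0.06). Irf1, a factor induced by interferon-gamma, read 7.75, 7.75 and 7.53 in knockout arrays and 7.82, 8.25 and 7.79 in control arrays. All 3 knockout arrays were lower, by a difference of -0.28 (95% interval -0.65 to 0.09), and control replicate 2 stood highest. Without control replicate 2 the difference of Irf1 was -0.13. A second, dimmer probe set of Irf1 differed by -0.20 (SE 0.15), with overlap between the genotypes.

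Irf7, the master factor of interferon-alpha induction, read 6.48, 6.10 and 5.84 in knockout arrays and 6.15, 6.58 and 6.19 in control arrays. Its arrays overlapped widely, with a difference of -0.17 (SE 0.19). Usp18, the protease that removes ISG15 from proteins and dampens the interferon receptor, lay between 5.90 and 5.97 in knockout arrays and between 5.95 and 6.09 in control arrays. For Stat2 and Irf9, which act together at the ISRE, the intervals included 0. Stat2 averaged 5.43 ± 0.10 in knockout and 5.40 ± 0.07 in control arrays (SD, n = 3 each), a difference of 0.036 (95% interval -0.26 to 0.33). Irf9 averaged 6.25 ± 0.18 in knockout and 6.28 ± 0.21 in control arrays (SD, n = 3 each), a difference of -0.030 (95% interval -0.39 to 0.33). Irf9 lies on chromosome 14, as the deleted locus does, 82 measured genes from Mir15a in gene order.

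Among the cytosolic RNA sensors, Dhx58 was the one whose arrays did not overlap between genotypes. Dhx58 encodes LGP2, a helicase without signalling domains that modulates the other sensors. It read 3.58, 3.57 and 3.15 in knockout arrays and 4.03, 4.04 and 4.01 in control arrays. The control arrays lay within 0.02 of each other and above every knockout array, by a difference of -0.59 (SE 0.15, unadjusted p = 0.00368, adjusted p = 0.999 by limma). All 6 values lay under the background level of 4.13. Ifih1, which encodes the sensor MDA5 for long double-stranded RNA, averaged 5.36 ± 0.28 in knockout and 5.28 ± 0.04 in control arrays (SD, n = 3 each). Ddx58, which encodes the sensor RIG-I for RNA with 5′ triphosphates, read 7.58, 7.70 and 7.44 in knockout arrays and 7.41, 7.76 and 7.45 in control arrays, with wide overlap. The differences of Ifih1 and Ddx58 were 0.085 (95% interval -0.28 to 0.45) and 0.033 (95% interval -0.31 to 0.37).

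**Figure D3:**
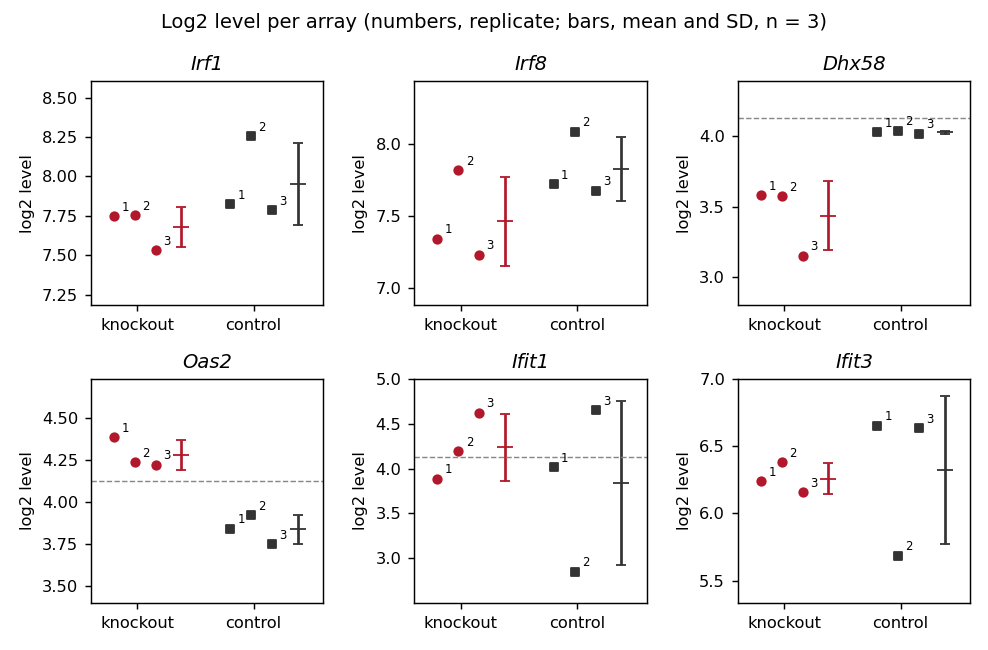
Log2 level per array of Irf1, Irf8, Dhx58, Oas2, Ifit1 and Ifit3, knockout left and control right in each panel, each panel with its own axis range. Numbers give the replicate, bars the mean and SD (n = 3 arrays), and the dashed line the background level of 4.13 where it falls in the panel. Knockout and control points are separate for Irf1, Dhx58 and Oas2, and control replicate 2 lies lowest for Ifit1 and Ifit3 and highest for Irf1 and Irf8.

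Among the 18 measured antiviral effectors 13 differences were negative and 5 positive, and the median was -0.064. The oligoadenylate synthetases sense double-stranded RNA and make the messenger that activates RNase L. Oas2 read 4.39, 4.24 and 4.22 in knockout arrays and 3.84, 3.92 and 3.75 in control arrays. All 3 knockout arrays lay above background and all 3 control arrays under it, with a difference of 0.44 (SE 0.13, unadjusted p = 0.00812, adjusted p = 0.999 by limma). The other genes of the family did not share this pattern of separate arrays. Oas1a, Oas2 and Oas3 form a cluster on chromosome 5, where Oas3 is the next measured gene after Oas2, and Oas3 averaged 4.81 ± 0.15 in knockout and 4.88 ± 0.17 in control arrays (SD, n = 3 each). Oas1a read 5.68, 5.32 and 6.17 in knockout arrays and 6.01, 5.45 and 6.16 in control arrays, so that replicate 3 was highest and replicate 2 lowest in both genotypes. Its difference was -0.15 (SE 0.24). The related Oasl1, which has no such enzyme activity, averaged 5.53 ± 0.16 in knockout and 5.60 ± 0.04 in control arrays (SD, n = 3 each). Its neighbour Oasl2 read 4.42, 5.11 and 5.04 in knockout arrays and 4.92, 4.37 and 5.06 in control arrays, with 1 low array in each genotype.

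The Ifit genes, whose proteins bind foreign RNA ends and block their translation, varied more within a genotype than between genotypes. Ifit1 read 3.89, 4.20 and 4.62 in knockout arrays and 4.02, 2.85 and 4.65 in control arrays. Its mean over the 6 arrays, 4.04, lay under background, as did its value in control replicate 2. Control replicate 2 lay 1.48 under the mean of the other controls, and the control range of 1.80 was wider than the wider within-genotype range of 99.6% of all genes. The difference of 0.40 (SE 0.39) turned to -0.10 without control replicate 2. Ifit3 read 6.24, 6.38 and 6.16 in knockout arrays and 6.65, 5.68 and 6.63 in control arrays. The knockout arrays thus lay between the control arrays, with control replicate 2 again lowest, by 0.96 against the other controls. Ifit2 read 6.38, 5.29 and 5.31 in knockout arrays and 5.98, 5.42 and 5.78 in control arrays. Here knockout replicate 1 was highest, 1.09 above the other knockout arrays, while control replicate 2 was the lowest control, by 0.45. Ifit2 and Ifit3 are adjacent measured genes on chromosome 19, and Ifit1 lies 3 measured genes from Ifit3 in gene order.

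Control replicate 2 had the lowest Xist and the highest Eif2s3y of the arrays. Among the controls it was also highest in S100a8, S100a9, Lyz2 and Itgax, the neutrophil and macrophage, monocyte and dendritic cell markers above background. It was likewise the highest control for the NK markers Ncr1, Cd27, Tbx21 and Prf1, and the lowest for Klrb1c, Klrk1 and Eomes. Over all genes above background its median deviation from the gene mean, 0.035, was the highest of the 6 arrays. S100a9 read 7.77, 5.70 and 6.64 in knockout arrays and 6.10, 7.36 and 6.11 in control arrays. Lyz2 read 5.12, 4.98 and 4.89 in knockout arrays and 4.78, 5.83 and 4.75 in control arrays. Control replicate 2 took opposite ends for different members. It lay furthest under the mean of the other controls for Ifit1, Ifit3, Iigp1, Oas1a, Oasl2, Mx1 and Ifit2, by 0.45 to 1.48. It lay furthest over that mean for Gbp7, Irf1, Gbp3, Irf7 and Irf8, by 0.38 to 0.65. Over the 31 members it was the lowest of the 6 arrays for 5 genes and the highest for 9. Over all 19938 genes it was lowest for 2828 and highest for 3165. Over the 10892 genes above background it was lowest for 1250 and highest for 2130. With a term for the sex-linked transcripts in the model, Ifit1 differed by 0.38 (SE 0.27) and Ifit3 by -0.073 (SE 0.17), and 0 members passed the threshold. The part of the sex-linked transcripts in the spread of the Ifit genes was not tested further, and that of the marker genes was not tested.

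**Figure D4:**
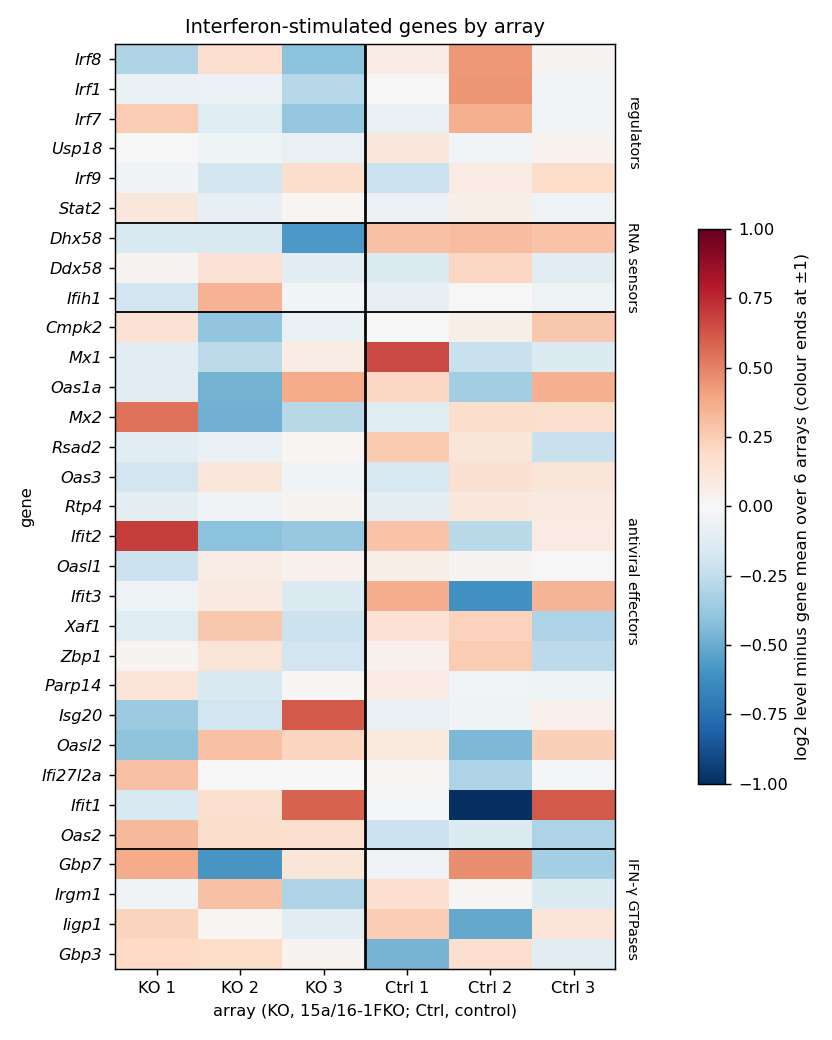
Log2 level minus the gene's mean over the 6 arrays (colour, ending at 1 on either side of 0), for 31 interferon-stimulated genes (rows, by role) in the knockout and control arrays (columns). Control replicate 2 is the bluest array for Ifit1 and Ifit3 and the reddest for Irf1 and Irf8, and Dhx58 and Oas2 show opposite colours on the sides of the line between genotypes.

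Of the other antiviral effectors, none had arrays that separated the genotypes. Mx1 and Mx2, dynamin-like GTPases that trap viral components, lie close together on chromosome 16. Mx1 averaged 4.13 ± 0.17 in knockout and 4.32 ± 0.49 in control arrays (SD, n = 3 each), with control replicate 1 alone high at 4.88. Mx2 read 3.07, 2.05 and 2.25 in knockout arrays and 2.41, 2.70 and 2.70 in control arrays, all under background. As background, C57BL/6 mice carry a defective Mx1 allele. Rsad2 (viperin, which makes a chain-terminating nucleotide) and its neighbour Cmpk2, a mitochondrial nucleotide kinase, were under background in every array, with differences of -0.11 (SE 0.16) and -0.21 (SE 0.17). Isg20, an exonuclease, read 4.38, 4.55 and 5.35 in knockout arrays and 4.67, 4.71 and 4.79 in control arrays, with knockout replicate 3 alone high.

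The other effectors lay above background in every array. Zbp1, a sensor of Z-form nucleic acid that triggers necroptosis, read 7.83, 7.93 and 7.61 in knockout arrays and 7.84, 8.05 and 7.53 in control arrays. Parp14, a mono-ADP-ribosyltransferase, read 7.48, 7.19 and 7.36 in knockout arrays and 7.43, 7.32 and 7.30 in control arrays, with a 95% interval of the difference from -0.32 to 0.30. Rtp4, a chaperone of G-protein-coupled receptors, averaged 6.93 ± 0.06 in knockout and 7.00 ± 0.11 in control arrays (SD, n = 3 each), with an interval from -0.37 to 0.23. Xaf1, an antagonist of the apoptosis inhibitor XIAP, averaged 6.79 ± 0.25 in knockout and 6.84 ± 0.29 in control arrays (SD, n = 3 each). Ifi27l2a, a small hydrophobic protein, lay at 6.15, 5.85 and 5.86 in knockout arrays and 5.86, 5.54 and 5.84 in control arrays, a difference of 0.20 (SE 0.16) with overlap.

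The 4 measured GTPases induced by interferon-gamma attack the vacuoles of intracellular parasites and bacteria, and 2 of them were higher and 2 lower in the knockout mean. Gbp3 read 6.05, 6.04 and 5.88 in knockout arrays and 5.39, 6.01 and 5.73 in control arrays, with control replicate 1 lowest and a difference of 0.28 (SE 0.17). Gbp7, the adjacent measured gene on chromosome 3, read 7.39, 6.43 and 7.13 in knockout arrays and 6.98, 7.48 and 6.68 in control arrays. The ranges of Gbp7, 0.96 in knockout and 0.80 in control arrays, were far wider than its difference of -0.062. Irgm1, a regulator of the other immunity-related GTPases, averaged 6.70 ± 0.30 in knockout and 6.73 ± 0.15 in control arrays (SD, n = 3 each). Iigp1, an effector GTPase of the same family, was under background in every array, with a difference of 0.086 (SE 0.21).

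Genes of the pathway outside the list were described for comparison, and 64 of 75 named ones were measured. The knockout mean was higher for 34 and lower for 30 of them, and the median difference was 0.044. None passed the threshold (0 of 64 by limma), and 2 of 64 (3.13%) had an unadjusted p under 0.05, beside 3.47% of all genes. Arrays did not overlap for 5 of 64 (7.81%), beside 8.33% of all genes. Ifng, the ligand that NK cells make, read 7.84, 7.87 and 7.72 in knockout arrays and 8.10, 8.34 and 7.89 in control arrays. All 3 knockout arrays were lower, with a difference of -0.30 (95% interval -0.65 to 0.04), and control replicate 2 was highest, as it was for Irf1. Ifnb1, the gene of interferon-beta, lay under background in both genotypes, between 2.03 and 2.38 in knockout and 2.28 and 2.61 in control arrays.

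The receptor and kinase genes gave differences near 0. Ifnar2 read 8.76, 8.76 and 8.84 in knockout arrays and 8.59, 8.75 and 8.63 in control arrays, a difference of 0.13 (SE 0.13) without overlap. Ifnar1 differed by -0.092 (95% interval -0.49 to 0.31), Ifngr1 by 0.047 (95% interval -0.24 to 0.33) and Jak1 by 0.091 (95% interval -0.21 to 0.39). Jak2 differed by 0.14 (SE 0.14), Tyk2 by 0.067 (SE 0.26) and Ifngr2, under background, by 0.11 (SE 0.16). The genes with an unadjusted p under 0.05 were Socs3, a feedback inhibitor of JAK kinases, and Ifitm1, a membrane protein that blocks viral entry. Socs3 read 4.86, 4.44 and 5.06 in knockout arrays and 5.28, 5.15 and 5.50 in control arrays, a difference of -0.52 (SE 0.18, adjusted p = 0.999 by limma). Ifitm1 read 4.54, 4.55 and 4.69 in knockout arrays and 5.14, 5.04 and 4.79 in control arrays, a difference of -0.40 (SE 0.15, adjusted p = 0.999 by limma). Both were lower in all 3 knockout arrays. A dimmer probe set of Socs3, above background, gave the opposite sign, 0.34 (SE 0.20), and that of Ifitm1 was under background in every array and gives no direction.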

How the data were processed

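A table of log2 values came from the authors, who deposited 35556 probe sets for 6 Affymetrix arrays. RMA and Partek 6.6 appear in the submitters' processing notes with no role given. Such values carry no detection call, and how far the change of dim probe sets is compressed was not measured here. The deposited log2 values ranged from 0.74 to 13.6, and the precision depends on the number of arrays. Symbols came from the platform annotation in GEO (1 symbol for 21789 probe sets, several for 1621, none listed for 12146). Where a gene had several probe sets, the brightest by mean was used.

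The genotypes were compared by limma 3.58.1 under R 4.3.3, with lmFit and a two-sided eBayes test, no other term, and Benjamini-Hochberg adjustment over 19938 genes. The fit was checked on simulated data. Differences are knockout minus control. The members and lists were chosen with earlier results of these data known. By rule, values per array belong to members with an unadjusted p under 0.05, those without overlap, the 5 brightest and the 5 with the widest range in 1 genotype. Other values per array, the olfactory receptor level, and Ifnb1 and the cell type markers named were chosen after values were seen. Alternatives were 2 further scalings, a filter on dim genes, the replicate number as block, limma-trend, weights for arrays, leaving out single arrays, a sex-linked covariate, and other choices of probe set. Same-numbered arrays were not taken as pairs. Promoter and microRNA sequences are from RefSeq (GRCm38.p6).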

Additional observations from a re-analysis of the deposited data

How the results depend on the processing

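In all 16 alternatives 0 of the measured interferon-stimulated genes and 0 of the other pathway genes passed the threshold by limma. The number of genes passing it was 4 in the main fit, 2 with the sex-linked term and 0 over every probe set of the table. It was 3 with the replicate block and with limma-trend, and 5 over every probe set with 1 symbol. With 1 array left out it was 2 to 3, and the remaining alternatives gave 4. The median of the interferon-stimulated genes was -0.084 after a further quantile normalization and -0.067 to -0.0034 with 1 array left out, and that of the other pathway genes -0.032 to 0.074. Of the 31 members, 11 kept their sign in every alternative, among them Dhx58, Oas2, Irf1, Irf7, Irf8 and Usp18, and 20 turned it when an array was left out. With 1 array left out, the log2 differences that changed sign ran from -0.099 to 0.80 for Ifit1, -0.43 to 0.12 for Ifit2, -0.38 to 0.10 for Ifit3, -0.26 to 0.23 for Isg20, -0.37 to 0.053 for Oas1a, -0.17 to 0.0028 for Oas3, -0.12 to 0.029 for Oasl1, -0.13 to 0.29 for Oasl2, -0.36 to 0.080 for Mx1, -0.45 to 0.061 for Mx2, -0.16 to 0.10 for Zbp1, -0.21 to 0.060 for Xaf1, -0.074 to 0.067 for Parp14, -0.067 to 0.20 for Ifih1, -0.032 to 0.14 for Ddx58, -0.15 to 0.055 for Irf9, -0.012 to 0.085 for Stat2, -0.26 to 0.21 for Gbp7, -0.19 to 0.12 for Irgm1, -0.15 to 0.23 for Iigp1, -0.18 to 0.080 for Ifnar1, -0.15 to 0.32 for Tyk2. Parp14 gave 0.0020 with arrays centred on their medians and Ddx58 -0.0056 after a further quantile normalization. The dimmest probe set gave 0.34 for Socs3 and 0.057 for Ifitm1, the last under background in every array. The cause of these changes was not tested.

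Replicate numbers occur in both genotypes, and with the replicate block 3 genes, and 0 members, passed the threshold. Deviations of same-numbered arrays correlated with r = 0.048, 0.15 and 0.14 over genes. Each array correlated best with its own number, a hint from the data and not from the design. For replicate 1 the margin was small. Knockout replicate 1 correlated with control replicate 2 at r = 0.042, and knockout replicate 3 with control replicate 1 at r = 0.045. The 7 members under background and the 3 arrays a genotype limit what these data can show.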

Other observations

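Probe sets that carry a second symbol were set aside for 3 members, and their values cannot be given to 1 gene. The probe set of Isg15 and Gm9706 read 5.63, 5.52 and 5.54 in knockout arrays and 5.75, 5.79 and 5.74 in control arrays, lower in all 3 knockout arrays by a log2 difference of -0.19 (SE 0.11, adjusted p = 0.9995 by limma with every probe set of the table tested). The probe set of Irgm2 and Igtp averaged 7.38 ± 0.11 in knockout and 7.56 ± 0.14 in control arrays (SD, n = 3 each), and that of Gbp2 and Gbp2b averaged 6.22 ± 0.40 in knockout and 6.02 ± 0.09 in control arrays (SD, n = 3 each).

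The 11 members with the ISRE core in a promoter window had a median difference of -0.030, with 6 negative. The 10 members with a window and no match had a median of -0.064, with 8 negative. This is a description of 21 genes and was not tested.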
